A study of Mus musculus with 18 samples.

Results

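The 10 genes described here serve antigen presentation by MHC class II molecules: H2-Aa, H2-Ab1, H2-Eb1, H2-DMa, H2-DMb1, Cd74, Ciita, Cd86, Cd80 and Flt3. They were chosen by symbol, with earlier results of these data known, and each matched 1 Ensembl identifier among the 30072 genes of the deposited tables. RNA sequencing was done on cardiac septum from mice that the paper describes as outbred wild-type CD-1, male and female littermates aged 8 weeks or more. The sample labels also name a mixed background. The 3 groups had 6 mice each. Control mice had anesthesia and computed tomography (CT) imaging without the treatment dose, and the labels give no week for them. The other groups were mice 2 weeks after a single 25 Gy dose to the heart, and mice 6 weeks after that dose (post-IR). All groups were anesthetized with isoflurane and imaged by CT, and no transgene or gene deletion was part of these groups. Of the 10 genes, 9 passed the filter on low counts and were tested, among 15054 genes tested in all. H2-Aa did not pass.

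MHC class II molecules are pairs of an alpha and a beta chain that carry peptides from the endosome to the cell surface, where CD4+ T cells read them. The invariant chain CD74 fills the groove of a new molecule and guides it to the endosome, the H2-DM pair exchanges the remnant of CD74 for a peptide, and CIITA switches the whole set of genes on. Dendritic cells, macrophages and B cells carry class II, and in the healthy heart these cells are a minority beside cardiomyocytes, endothelial cells and fibroblasts.

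H2-Aa and H2-Eb1 are shown by the 250 bases before their RefSeq start because the class II chains are what CIITA switches on and the results below turn on them. Capitals mark the letters CCAAT, searched as a Y box core, and ACAGATG, searched as an X box core, each on either strand. Whether a marked stretch serves as such a box, or an unmarked stretch does, was not tested. Both sequences are from RefSeq on GRCm38.p6, written 5′ to 3′ on the strand of the gene, at chr17:34287824-34288073 on the minus strand for H2-Aa and chr17:34305617-34305866 on the plus strand for H2-Eb1.
H2-Aa: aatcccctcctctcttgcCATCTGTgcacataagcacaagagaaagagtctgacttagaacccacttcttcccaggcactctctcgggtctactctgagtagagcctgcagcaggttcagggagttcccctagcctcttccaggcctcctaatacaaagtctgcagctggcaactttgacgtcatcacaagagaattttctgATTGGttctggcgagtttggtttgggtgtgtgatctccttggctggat
H2-Eb1: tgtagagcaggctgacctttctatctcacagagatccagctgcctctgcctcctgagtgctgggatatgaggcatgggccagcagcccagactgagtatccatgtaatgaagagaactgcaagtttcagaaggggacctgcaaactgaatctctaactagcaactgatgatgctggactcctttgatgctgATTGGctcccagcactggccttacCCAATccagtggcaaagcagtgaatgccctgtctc
The H2-Aa window held ATTGG, the reverse complement of CCAAT, at bases -48 to -44 and CATCTGT, the reverse complement of ACAGATG, at bases -232 to -226. The H2-Eb1 window held ATTGG at bases -59 to -55 and CCAAT at bases -35 to -31. H2-DMb1 held ATTGG at bases -61 to -57, a place like that in H2-Eb1, and 1 of the 2 H2-DMa windows held it at bases -198 to -194. These letters are common: CCAAT or its reverse complement stood in 37.4% of 32851 promoter windows, and ACAGATG or its reverse complement in 5.01%. For these shares the windows also held bases past the start, so they were longer than the 250 bases shown here. The gamma-activated site TTCNNNGAA, which reads alike on both strands, stood in 8.30% of the same longer windows and in none of the windows matched here. Windows were matched for 6 of the 10 genes, also Cd80 and Flt3, and not for H2-Ab1, Ciita, Cd86 and Cd74.

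Libraries held 11522987 to 15501019 counts in total, and values below are normalized CPM, the counts of a gene relative to the library's total, scaled by the trimmed mean of M values. A count of 3 corresponded to 0.179 to 0.278 CPM, so values in that range rest on a few reads, and these limits cover counting error only. Markers of ventricular cardiomyocytes were abundant in every mouse. Control mouse 4 stood apart with the highest summed atrial (1580 CPM) and fibroblast (2020 CPM) markers. The share of counts from mitochondrially encoded genes was 19.84 to 24.97% in control mice, 17.81 to 20.58% at 2 weeks and 16.52 to 20.05% at 6 weeks. Its part in the results was not tested, and without those genes the numbers of called genes below were the same (5, 8 and 2).

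Most of these class II presentation genes rose post-IR, in larger number at 6 weeks than at 2 weeks. Since the genes were chosen with earlier results known, the shares of all tested genes beside their counts are a description, not a test. At 2 weeks against control, 5 of the 9 tested genes rose (Cd74, Ciita, H2-Eb1, H2-DMb1 and Flt3), against 3.10% of all tested genes called higher, and all 5 were past a log2 fold change of 1, against 0.737%. At 6 weeks, 8 rose, all but H2-DMb1, against 13.5% of all tested genes, and all 8 were past a log2 fold change of 1, against 5.26%. From 2 to 6 weeks, 2 rose (Cd74 and Cd86), against 3.31%, and 1 of them, Cd74, was past a log2 fold change of 1, against 0.963%. Of the 9, 0 fell in any comparison (at an unadjusted P under 0.05, 0, 0 and 1 were lower, and DESeq2 called 0) by edgeR's quasi-likelihood test with Benjamini-Hochberg adjustment, which gave every adjusted P of a group difference below unless another test is named. The median log2 fold change of the 9 genes was 1.31 at 2 weeks, 2.23 at 6 weeks and 0.86 from 2 to 6 weeks, beside -0.001, -0.019 and -0.001 over all tested genes. In bulk tissue, more cells of a type and more RNA per cell cannot be told apart.

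The 2-week calls lay near the threshold. With 1 mouse left out at a time, 0 to 6 genes were called at 2 weeks, 0 without control mouse 6, 2 without control mouse 3 or 5 or mouse 1, 3 or 6 at 2 weeks, and 3 without control mouse 2 or mouse 5 at 2 weeks. At 6 weeks, 8 genes were called whichever mouse was left out.

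**Figure D1:**
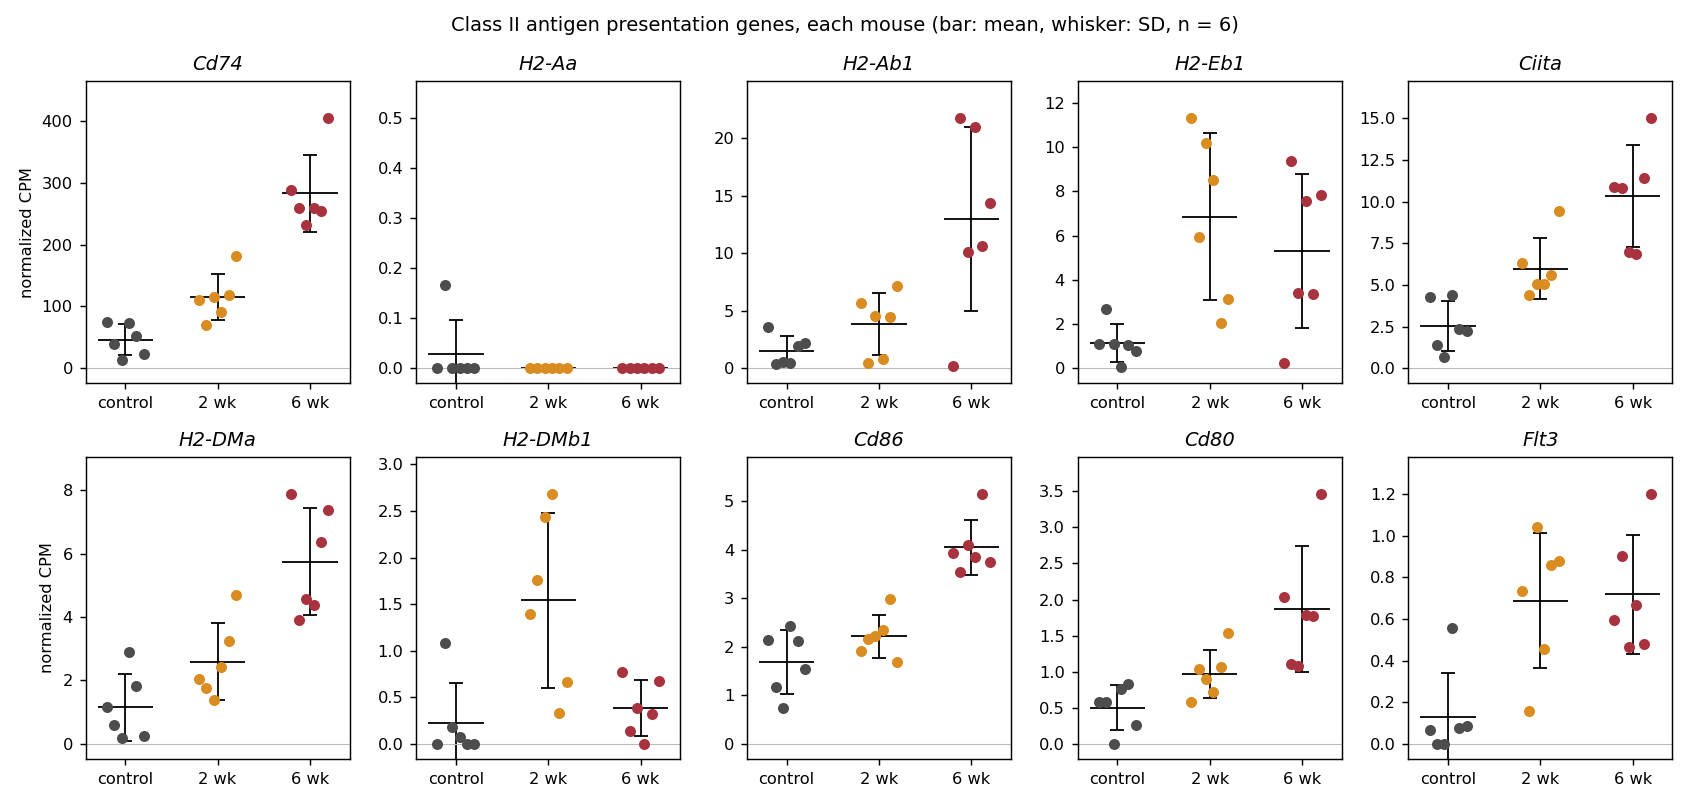
Each panel plots 1 gene, with normalized CPM on a linear y axis of its own and the 3 groups on the x axis; each point is 1 mouse, the bar the mean and the whisker the SD (n = 6). Cd74 at 6 weeks lay between 232 and 404 CPM in every mouse, above all other mice, while H2-Ab1 at 6 weeks ranged from 0.179 to 21.7 CPM and H2-Aa was at 0 in 17 of 18 mice.

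Cd74, which encodes the invariant chain (chr18:60803848-60812652, GRCm38, plus strand), was the most abundant of these genes per unit length in each group. In TPM, which takes transcript length into account, its mean was 42.9 ± 26.9 TPM in control mice (n = 6, SD), 120 ± 38.5 TPM at 2 weeks and 333 ± 87.7 TPM at 6 weeks. Its lowest, median and highest CPM were 13.5, 46.3 and 74.6 in control mice, 69.8, 114 and 181 at 2 weeks, and 232, 259 and 404 at 6 weeks. Only the lowest 2-week mouse reached into the control range, and the 6-week mice overlapped neither other group. The log2 fold change against control was 1.31 ± 0.316 (SE; adjusted P = 0.0227) at 2 weeks and 2.61 ± 0.327 (adjusted P = 1.88e-05) at 6 weeks, a 2.48-fold and a 6.12-fold difference. From 2 to 6 weeks it rose by 1.30 ± 0.311 (adjusted P = 0.0237). That last call was lost without mouse 2 or 4 at 2 weeks (adjusted P = 0.0569 and 0.0543) or mouse 6 at 6 weeks (0.0604), and the 2-week call without mouse 6 at 2 weeks (0.0586) or control mouse 6 (0.05, at the threshold).

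Ciita, the class II transactivator (chr16:10480059-10528418, plus strand), had the same order of groups at a much lower level. CPM values were 0.648, 2.29 and 4.37 (lowest, median and highest) in control mice, 4.41, 5.32 and 9.46 at 2 weeks, and 6.89, 10.9 and 15.0 at 6 weeks. No irradiated mouse was as low as any control mouse, by a narrow margin at 2 weeks, and the irradiated groups overlapped. The log2 fold change was 1.17 ± 0.317 at 2 weeks (adjusted P = 0.0395) and 1.96 ± 0.305 at 6 weeks (adjusted P = 0.000145). The difference of 0.79 between 2 and 6 weeks did not pass (adjusted P = 0.0961). Leaving out 1 mouse ended the 2-week call for 8 of the 18 mice (control mice 2, 3, 5 and 6 and mice 1, 3, 5 and 6 at 2 weeks), with an adjusted P of at most 0.096.

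The chains that form the surface molecule lie together on chromosome 17, and their values were uneven between mice. H2-Aa, the alpha chain of I-A (chr17:34282744-34287823, minus strand), had 2 counts in control mouse 2 and 0 in the other 17 mice. Its partner H2-Ab1, the beta chain of I-A (chr17:34257689-34269419, plus strand), was counted in all 18 mice, with up to 313 counts. In the reference transcripts, 0.911% of the distinct 31-base stretches of H2-Aa were shared with another gene. The reads were assigned to a GRCm38 reference, which is of strain C57BL/6J, whereas these mice were outbred. Whether reads of other H2 alleles matched that reference was not tested, and for a gene of this region a low level and a poor match cannot be told apart.

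H2-Ab1 had 0.333, 1.22 and 3.58 CPM (lowest, median and highest) in control mice, 0.481, 4.48 and 7.18 at 2 weeks, and 0.179, 12.5 and 21.7 at 6 weeks. Of the 6-week mice, 5 were at 10.1 CPM or more, above every other mouse, and mouse 1 had the lowest value of all 18, with 3 counts beside 4845 counts of Cd74. The log2 fold change was 1.31 ± 0.782 at 2 weeks (adjusted P = 0.366), which did not pass, and 3.06 ± 0.703 at 6 weeks (adjusted P = 0.00353), which did. The difference from 2 to 6 weeks was 1.75 ± 0.609 (adjusted P = 0.101) and passed without that mouse (2.02, adjusted P = 0.031). The 6-week call was lost in limma with sample quality weights (2.43, adjusted P = 0.314).

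H2-Eb1, the beta chain of I-E (chr17:34305867-34316674, plus strand), had its highest mean at 2 weeks. CPM values were 0.0694, 1.08 and 2.67 in control mice, 2.05, 7.22 and 11.3 at 2 weeks, and 0.239, 5.48 and 9.37 at 6 weeks. Mice 1 to 4 at 2 weeks had 5.93 to 11.3 CPM and mice 5 and 6 had 2.05 and 3.15. All groups overlapped, and mouse 1 at 6 weeks, with 4 counts, was again low. H2-Eb1 rose at 2 weeks (log2 fold change 2.62 ± 0.632, adjusted P = 0.0227) and at 6 weeks (2.24 ± 0.651, adjusted P = 0.0164), and the difference between the irradiated groups was -0.38 ± 0.496 (adjusted P = 0.715). With sample quality weights neither rise passed (adjusted P = 0.17 and 0.314), and the 2-week rise was lost without control mouse 6 (0.0516) or mouse 1 at 2 weeks (0.0503).

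The ratio of the beta chains differed from mouse to mouse. H2-Eb1 minus H2-Ab1 on the log2 CPM scale was 3.28 and 3.21 in mice 2 and 4 at 2 weeks and 2.55 in control mouse 2. It was -0.87 to -1.61 in mice 2 to 6 at 6 weeks. The ratio had values of both signs in each group.

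H2-DMa and H2-DMb1 encode the alpha and beta chains of the peptide exchange molecule H2-DM, and by mean CPM H2-DMa was highest at 6 weeks and H2-DMb1 at 2 weeks. H2-DMa (chr17:34119541-34139101, plus strand) had 0.185, 0.877 and 2.91 CPM in control mice, 1.39, 2.24 and 4.69 at 2 weeks, and 3.89, 5.46 and 7.87 at 6 weeks. The 6-week mice were all above the control mice, and the 2-week mice overlapped both. Its log2 fold change was 1.09 ± 0.439 at 2 weeks (adjusted P = 0.165, or 1.61 and 0.0404 without control mouse 4), 2.23 ± 0.398 at 6 weeks (adjusted P = 0.000483) and 1.14 ± 0.347 from 2 to 6 weeks (adjusted P = 0.061). That last difference passed in 4 of 18 fits that left out 1 mouse, those without control mouse 3, 4 or 6 or mouse 6 at 2 weeks.

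H2-DMb1 (chr17:34153072-34160230, plus strand) was low, with 0, 0.0347 and 1.08 CPM in control mice, 0.331, 1.58 and 2.68 at 2 weeks, and 0, 0.354 and 0.775 at 6 weeks. Mice 1 to 4 at 2 weeks had 19 to 41 counts, and control mouse 2, with 13 counts, was the only control mouse above 2. H2-DMb1 rose at 2 weeks (2.85 ± 0.723, adjusted P = 0.027), and did not pass at 6 weeks (0.90 ± 0.956, adjusted P = 0.543) or from 2 to 6 weeks (-1.95 ± 0.617, adjusted P = 0.0692, and 0.0276 without control mouse 2). Without control mouse 2 the log2 fold change was 4.82 at 2 weeks and 2.88 at 6 weeks. The 2-week call was lost without control mouse 3, 5 or 6 or mouse 3 or 4 at 2 weeks, with an adjusted P of at most 0.0611. Of its 31-base stretches, 31.4% were shared with other genes, all of those with its neighbor H2-DMb2, so the split of reads between the DM beta genes is uncertain.

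**Figure D2:**
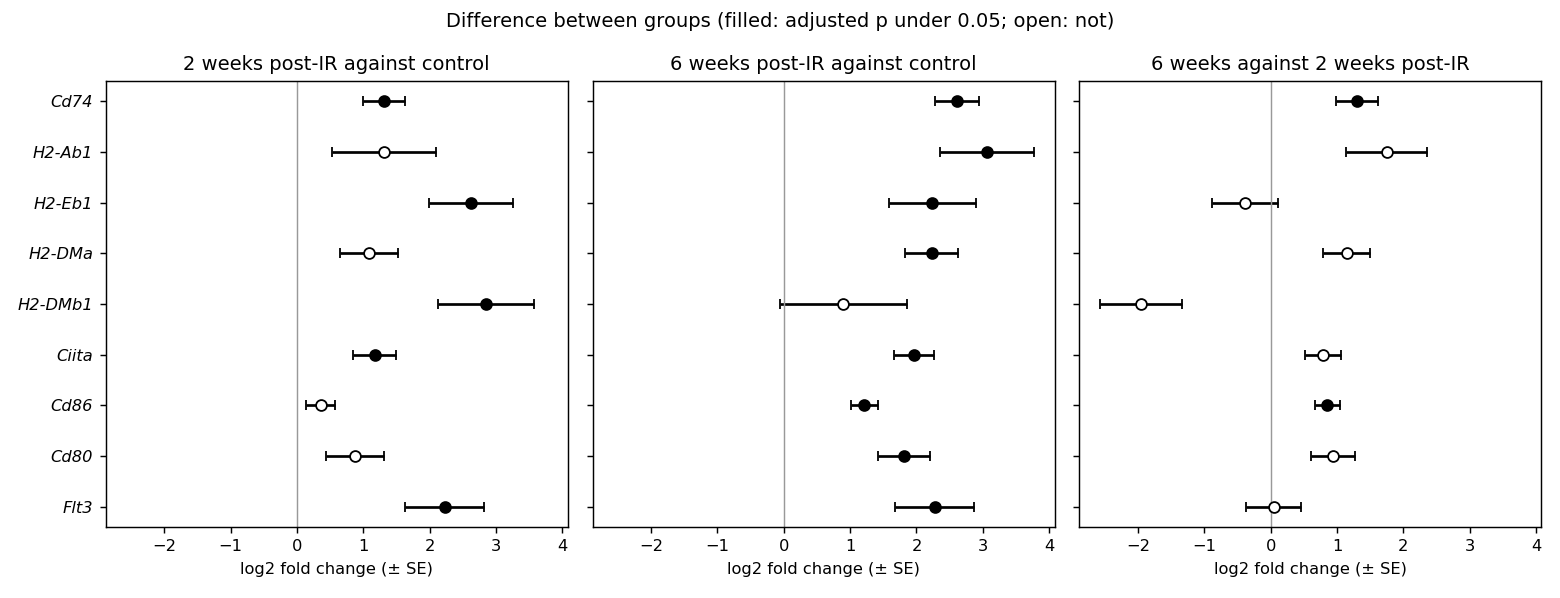
The x axis is the log2 fold change from edgeR with its SE as whisker, the y axis lists the 9 tested genes, and each panel is 1 comparison; filled points had an adjusted p under 0.05. All 9 points are above 0 in both comparisons with control, and H2-DMb1 (-1.95) and H2-Eb1 (-0.38) are below 0 from 2 to 6 weeks.

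Cd86 and Cd80 encode the ligands through which a presenting cell co-stimulates T cells by CD28. Cd86 (chr16:36603869-36666081, minus strand) had 0.740, 1.83 and 2.43 CPM in control mice, 1.69, 2.20 and 2.98 at 2 weeks, and 3.54, 3.90 and 5.15 at 6 weeks. The control and 2-week mice overlapped, and the 6-week mice were above all others. It rose at 6 weeks against control (1.22 ± 0.203, adjusted P = 0.000272) and against 2 weeks (0.86 ± 0.192, adjusted P = 0.0188), and at 2 weeks its log2 fold change was 0.36 ± 0.220 (adjusted P = 0.381).

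Cd80 (chr16:38455561-38496335, plus strand) had 0, 0.584 and 0.832 CPM in control mice, 0.587, 0.973 and 1.54 at 2 weeks, and 1.08, 1.77 and 3.46 at 6 weeks. The 6-week mice did not overlap the control mice. It rose at 6 weeks (1.81 ± 0.385, adjusted P = 0.00201), and its log2 fold change was 0.87 ± 0.434 at 2 weeks (adjusted P = 0.268) and 0.94 ± 0.334 from 2 to 6 weeks (adjusted P = 0.108).

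Flt3, the receptor for a growth factor of dendritic cells (chr5:147330741-147400489, minus strand), had at most 16 counts in any mouse. CPM values were 0, 0.0703 and 0.555 in control mice, 0.160, 0.798 and 1.04 at 2 weeks, and 0.465, 0.632 and 1.20 at 6 weeks. The highest control value was that of mouse 4, with 8 counts, and the other 5 control mice were below every irradiated mouse. Flt3 rose at 2 weeks (2.23 ± 0.596, adjusted P = 0.0328) and at 6 weeks (2.27 ± 0.593, adjusted P = 0.00685). Without control mouse 4 these values were 3.64 and 3.68. The irradiated groups differed by 0.05 ± 0.412 (adjusted P = 0.969). The 2-week call was lost in 9 of 18 fits that left out 1 mouse, all control mice but mouse 4 and mice 1, 3, 5 and 6 at 2 weeks, with an adjusted P of at most 0.0749.

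Groups that did not overlap, with every mouse of the later group above every mouse of the other, were found for 1 of the 9 genes at 2 weeks against control (Ciita), against 1.96% of all tested genes. They were found for 5 genes at 6 weeks against control (Cd74, Ciita, Cd86, Cd80 and H2-DMa), against 5.80%, and for 2 genes from 2 to 6 weeks (Cd74 and Cd86), against 2.27%. None of the class II chain genes H2-Ab1 and H2-Eb1 was in these sets.

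Within groups the chain genes were the most variable. The SD of log2 CPM within groups, pooled over the 3 groups, was 1.74 for H2-Ab1 and 1.34 for H2-Eb1, beside 0.64 for Cd74 and for Ciita, 0.39 for Cd86 and a median of 0.25 over all tested genes. H2-DMb1 had 1.07 and H2-DMa 0.85. Cd80 had 0.73 and Flt3 0.69. Low counts add to such an SD, and their part was not tested. H2-Ab1 ranged from 3 to 313 counts and H2-Eb1 from 1 to 154 over the 18 mice.

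Some neighbors of these genes on chromosome 17 were high in the same mice. H2-Ea-ps, the I-E alpha chain locus, listed as a pseudogene in the reference, had 13 to 19 counts in mice 1 to 4 at 2 weeks and 0 to 4 counts in every other mouse. H2-K1, a class I heavy chain, had 307 to 871 counts in mice 1 to 4 at 2 weeks, 360 counts in control mouse 2, and 0 to 178 counts in the other 13 mice. The 5 mice highest in H2-DMb1 CPM, mice 1 to 4 at 2 weeks and control mouse 2, were thus also the 5 with the most H2-K1 counts. Other genes inside the interval were steadier: pooled SDs were 0.46 for Tap2, 0.48 for Psmb8 and 0.65 for Tap1, which serve class I loading. H2-DMb2, the second DM beta gene, rose at 6 weeks (2.10 ± 0.427, adjusted P = 0.00141) with no overlap between groups, unlike H2-DMb1. Mice were littermates and the labels name no litter, so in this region irradiation and inherited alleles cannot be told apart for a difference carried by some mice of a group.

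**Figure D3:**
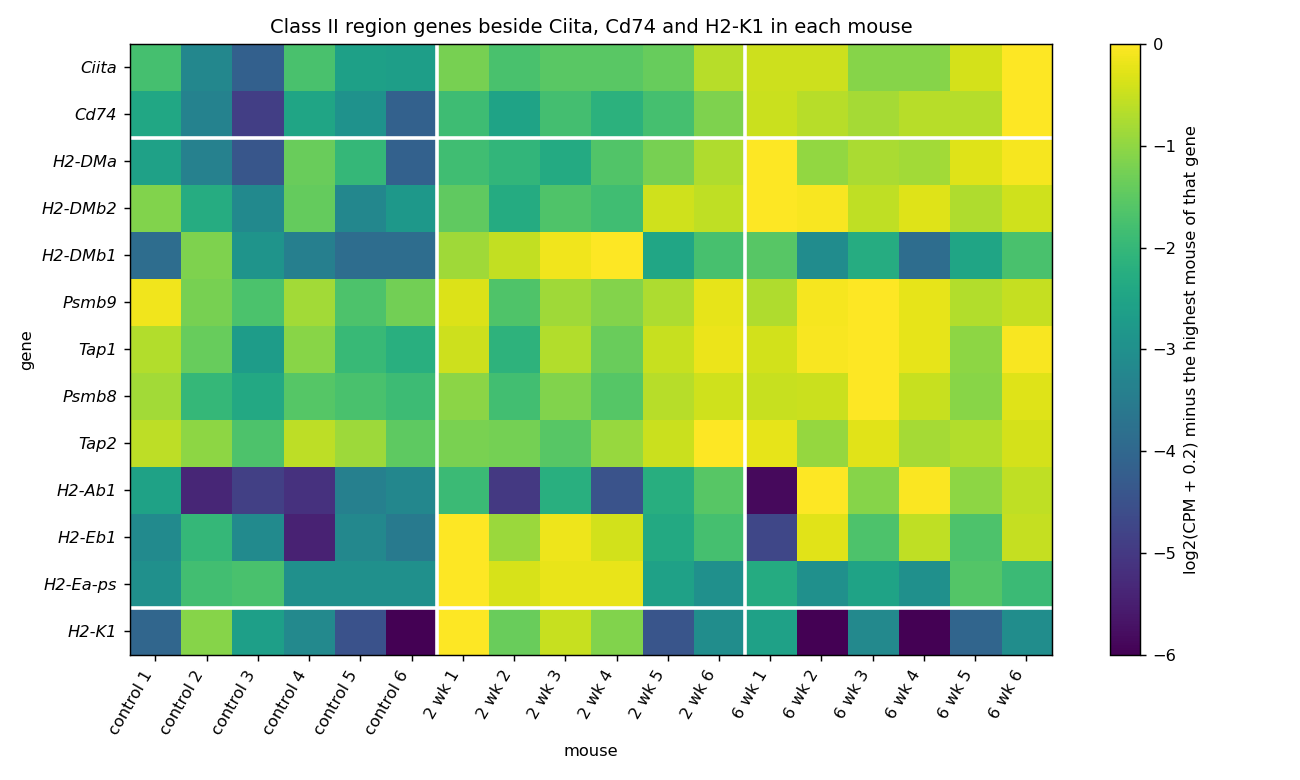
Rows are Ciita and Cd74, then the class II region genes with at least 10 counts in some mouse in chromosome order, then H2-K1; columns are the 18 mice by group, and color is log2(CPM + 0.2) minus the value of that gene's highest mouse. Ciita and Cd74 are brightest in mouse 6 at 6 weeks, H2-DMb1 and H2-Ea-ps are brightest in mice 1 to 4 at 2 weeks, H2-K1 is bright in those mice and in control mouse 2, and H2-Ab1 is dark in mouse 1 at 6 weeks.

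Relative to Cd74, several genes rose less. The log2 ratio of each of the other 8 tested genes to Cd74 was compared between groups by a two-sided exact permutation test, and 7 of 24 ratios passed after Benjamini-Hochberg adjustment. Cd86 was lower relative to Cd74 by a log2 difference of -1.06 at 2 weeks (adjusted P = 0.026, exact permutation) and -1.56 at 6 weeks (adjusted P = 0.013, exact permutation). The first was lost without control mouse 3, 4 or 6 (exact permutation adjusted P = 0.0519 for each). Cd80 was lower by -1.06 at 6 weeks (adjusted P = 0.013, exact permutation), a difference that did not pass with a smaller prior count of 0.5 (-0.61, exact permutation adjusted P = 0.355). Ciita was lower relative to Cd74 at 6 weeks, by -0.70 against control (adjusted P = 0.0297, exact permutation; 0.0779 with the smaller prior count) and by -0.57 against 2 weeks (adjusted P = 0.0208, exact permutation). The call against control was lost without control mouse 3, 4 or 6 or mouse 1, 3, 4 or 6 at 6 weeks, with an exact permutation adjusted P of at most 0.0594. From 2 to 6 weeks Flt3 was lower by -1.22 and H2-DMb1 by -3.01 relative to Cd74 (both adjusted P = 0.013, exact permutation). No ratio of H2-Ab1, H2-Eb1 or H2-DMa to Cd74 passed. With H2-Ab1 in place of Cd74 as the reference, 0 of 24 ratios passed by the same exact test, and 1 had an unadjusted P under 0.05.

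Within a group, mice high in Cd74 tended to be high in Ciita, but no relation passed. Over the 6 mice of a group, Pearson's r of log2 CPM between Cd74 and Ciita was 0.88 in control mice (rho 0.89), 0.91 at 2 weeks (rho 0.83) and 0.77 at 6 weeks (rho 0.43). The exact permutation P values of r were 0.025, 0.0208 and 0.0611, and 0.075, 0.075 and 0.0917 when adjusted over 9 relations. For rho, the exact permutation P values were 0.0333, 0.0583 and 0.419. Without the 2 mice farthest from the median of Cd74, r was 0.999 in control mice, 0.39 at 2 weeks and 0.22 at 6 weeks. Leaving out those mice narrows the range of Cd74, so a lower r does not tell whether the relation rested on them. For Flt3, r was 0.56, 0.82 and 0.80, and for Cd86 it was 0.88, -0.37 and -0.30, with adjusted exact permutation P values of 0.075 to 0.489. H2-Aa was left out after its counts were seen, since it was at 0 in every irradiated mouse and had 2 counts in 1 control mouse.

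The genes whose values followed the class II genes most closely were found from the mean of H2-Aa, H2-Ab1, H2-Eb1 and Cd74, each as log2 CPM minus its group mean, over 18 mice. The 10 highest correlations ran from 0.81 to 0.70 and belonged to the unnamed gene ENSMUSG00000101999 and to Fbxl8, Nae1, Gpr3, Pam16, U2surp, Snx11, Ghr, Igf2bp3 and Scrn2. None of the 9 genes with an annotated position lies on chromosome 17. The mean was weighted by the variable H2-Ab1. Measured the same way against Cd74 alone, as a description over 18 mice that share libraries, Ciita had r = 0.86, H2-DMa 0.85, Cd80 0.83, H2-Ab1 0.24, H2-DMb1 -0.17 and H2-Eb1 -0.20.

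Other genes of the pathway were followed in fixed lists. Of 12 tested genes for class II chains, peptide loading and turnover, 1 rose at 2 weeks, H2-Ea-ps (3.23, adjusted P = 0.0187). Over all tested genes, 3.10% were called higher there. H2-Ea-ps fell from 2 to 6 weeks (-2.66, adjusted P = 0.0307), against 2.01% of all tested genes called lower. At 6 weeks 4 rose against control, beside 13.5% of all tested genes, and the list's median log2 fold change was 0.42. Ctss, the protease cathepsin S that trims the invariant chain, went from 8.50 ± 4.63 CPM in control mice to 16.7 ± 3.14 at 2 weeks and to 40.0 ± 14.6 CPM by 6 weeks (n = 6, SD). From 2 to 6 weeks Ctss was the 1 gene of this list that rose (1.26, adjusted P = 0.016), against 3.31% of all tested genes. Its 6-week rise was 2.21 (adjusted P = 2.63e-05), with no overlap between groups, beside H2-DMb2 (2.10), March1 (1.21), the ligase that removes class II from the surface, and the lysosomal reductase Ifi30 (0.66). H2-Eb2, H2-Oa and H2-Ob had at most 6 counts in any mouse and were not tested.

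The complex that CIITA joins at the promoter was measured through 7 tested genes. At 6 weeks 1 of them fell, Nfyc (-0.26, adjusted P = 0.00262), a share near the 11.5% of all tested genes called lower, and the list's median log2 fold change was 0.02. With library size as the only scaling Nfyc did not fall (0.01, adjusted P = 0.928). Among the 9 tested genes that lead from interferon gamma to Ciita, 3 rose at 2 weeks, Irf8 and Il10ra among them, beside 3.10% of all tested genes. At 6 weeks 4 rose, among them Irf8, Il10ra and Socs1, beside 13.5% of all tested genes. Irf8, a transcription factor of myeloid cells, had 6.92 ± 2.30 CPM in control mice, 13.4 ± 1.60 at 2 weeks and 21.3 ± 2.98 at 6 weeks (n = 6, SD), with no overlap between any groups. Ifngr2, a receptor chain for interferon gamma, fell at 6 weeks by 0.33 on the log2 scale (adjusted P = 0.000242), which did not pass with library size as the only scaling (-0.06, adjusted P = 0.422), and Ifng itself had at most 1 count in any mouse.

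Some ligands that help or restrain T cells rose at 6 weeks. Of 6 other co-stimulatory or co-inhibitory ligands tested, 0 rose at 2 weeks by edgeR (0 at an unadjusted P under 0.05, and 0 by DESeq2). At 6 weeks 4 rose, against 13.5% of all tested genes: Cd40 (1.08), Cd83 (0.93), Cd274 (0.79) and Cd276 (0.65). Tnfsf9 (0.72, adjusted P = 0.138) and Icosl (0.28, adjusted P = 0.313) did not pass, and 4 listed ligands were not tested. Of 5 tested T cell partners, 1 rose at 6 weeks, which is no result about the list beside the 13.5% of all tested genes called higher. It was Lag3, which binds class II (1.56, adjusted P = 0.00377), from 0.338 ± 0.124 to 1.01 ± 0.413 CPM (SD, n = 6). Of 15 tested dendritic cell genes, 6 rose at 6 weeks, against 13.5% of all tested genes: Itgax (3.92), Itgae (1.95), Cd209a (1.86), Batf3 (1.63), Clec10a (1.14) and Xcr1 (1.09). The other 9 did not pass: Ccr7 (1.555), Kmo (0.955), Irf4 (0.925), Id2 (0.405), Clec9a (0.213), Zbtb46 (0.035), Dpp4 (-0.004), Ifi205 (-0.151) and Siglech (-0.202). Itgax, which encodes CD11c, had 0.315 ± 0.195 CPM in control mice and 5.04 ± 4.32 at 6 weeks (SD, n = 6). Flt3l was not among the rows analysed here.

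Markers of cells that can carry class II moved with these genes, and their part in the results was not tested. Ptprc, the leukocyte antigen CD45, ran from 4.07 to 13.5 CPM in control mice, 10.4 to 22.4 at 2 weeks and 22.3 to 42.5 at 6 weeks, with log2 fold changes of 1.01 and 1.97. Of 10 macrophage markers, 1 rose at 2 weeks and 9 at 6 weeks, and their sum was 174 to 506, 334 to 424 and 450 to 608 CPM in the 3 groups. Monocyte markers summed to 2.25 to 8.81, 5.65 to 16.8 and 15.3 to 21.7 CPM, with 1 and then 4 of 4 tested genes risen. B cell markers summed to at most 3.71 CPM and T cell markers to at most 3.46 CPM in any mouse, with 2 of 4 and 2 of 3 tested genes risen at 6 weeks, and Cd8b1 was at 0 in every control mouse. Dendritic cell genes summed to 43.3 to 53.3, 51.4 to 60.1 and 56.2 to 73.1 CPM, and 57.8% of that sum was Zbtb46, which endothelial cells also express. Ventricular cardiomyocyte markers summed to 31500 to 49200, 33500 to 42500 and 26200 to 34700 CPM, and 7 of 7 fell at 6 weeks, or 2 of 7 with library size as the only scaling. Of 5 tested endothelial markers 2 rose and 1 fell at 6 weeks (4 and 0 with library size as the only scaling), and of 5 fibroblast markers 1 fell. Lymphoid stroma markers summed to 13.8 to 31.7 CPM in control mice and 8.52 to 14.2 at 6 weeks, where 1 of 3 tested genes fell and Glycam1 was at 0 in every mouse. Over all tested genes, 3.10% were called higher at 2 weeks, and 13.5% higher and 11.5% lower at 6 weeks. Beside these shares, 1 gene fallen of 5 or of 3 is no result about the list. Of 4 atrial and 3 adipocyte markers tested, 0 passed by edgeR in any comparison (0 at an unadjusted P under 0.05, and 0 by DESeq2).

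Cd74 rose more than 5 of 6 marker sums at 6 weeks. The log2 ratio of Cd74 to 6 marker lists was compared between groups by a two-sided exact permutation test, and 10 of 18 differences passed after adjustment. Relative to macrophage markers Cd74 was higher by 1.02 at 2 weeks (adjusted P = 0.0195, exact permutation) and by 1.91 at 6 weeks (adjusted P = 0.013, exact permutation), and the 6-week and control mice did not overlap. Relative to Ptprc it was higher by 0.77 at 6 weeks (adjusted P = 0.0303, exact permutation), and this call was lost without control mouse 2, 3, 4 or 6 or mouse 1 or 2 at 6 weeks, with an exact permutation adjusted P of at most 0.0606. Relative to dendritic cell genes it was higher by 1.28 at 2 weeks and 2.48 at 6 weeks (adjusted P = 0.0195 and 0.013, exact permutation). This ratio rests largely on Zbtb46, 57.8% of the dendritic cell sum, which did not pass against control (log2 fold changes 0.11 and 0.035). Relative to T cell markers Cd74 was higher by 1.05 and 0.97 (adjusted P = 0.0351 and 0.0195, exact permutation), and neither passed on summed TPM (exact permutation adjusted P = 0.085 for each). Relative to B cell markers it was higher by 1.42 at 6 weeks (adjusted P = 0.0195, exact permutation). The ratio to monocyte markers differed by -0.05, 0.41 and 0.46 in the 3 comparisons, and none passed (adjusted P = 0.898, 0.329 and 0.162, exact permutation).

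**Figure D4:**
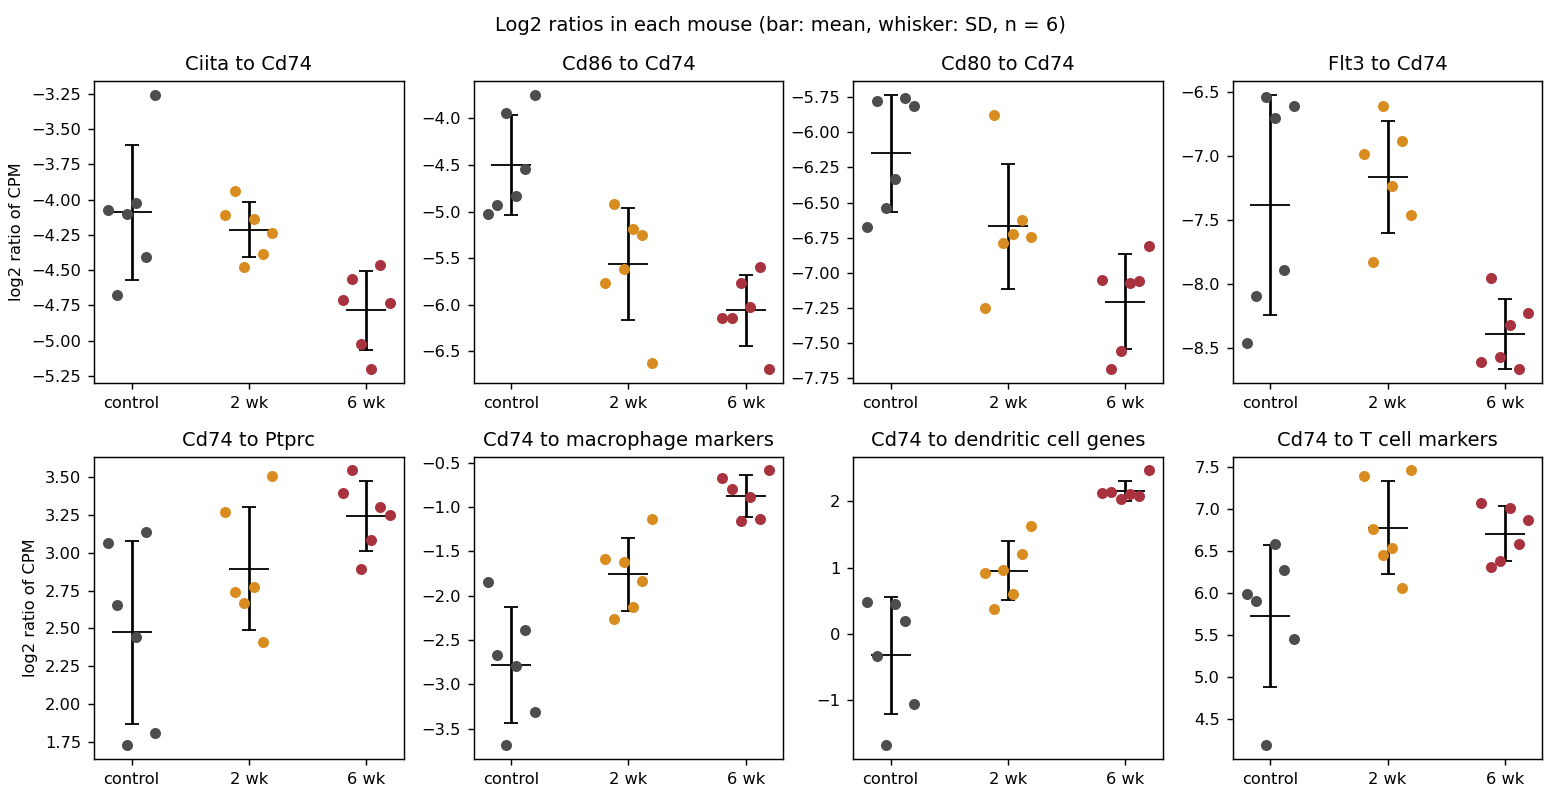
Each panel is 1 log2 ratio of CPM on the y axis, with 1 point per mouse, the mean as bar and the SD as whisker (n = 6) for the 3 groups on the x axis. The upper row sets Ciita, Cd86, Cd80 and Flt3 against Cd74, and the lower row sets Cd74 against Ptprc and the summed macrophage, dendritic cell and T cell lists; at 6 weeks Cd74 stood 1.91 higher relative to macrophage markers than in control mice, and the ratio of Cd86 to Cd74 differed by -1.56.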

How the data were processed

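The authors used STAR for alignment to GRCm38 and Salmon 1.0 for quantification, and deposited estimated counts and TPM for each gene and mouse. Replicates were not pooled. Counts were rounded to whole numbers. Genes with at least 0.23 CPM in 6 or more mice (15054) were fitted for all 18 mice in edgeR 4.0.16 (R 4.3.3; TMM scaling, quasi-likelihood test, 3 group means), with Benjamini-Hochberg adjustment over all tested genes and a threshold of 0.05. Log2 CPM used a prior count of 2. Ratios and relations used exact permutation tests over mice in SciPy, with a smallest possible P of 0.00216 for 6 against 6 mice (924 arrangements). The ratio test was planned for 9 genes besides Cd74, and H2-Aa was left out because it failed the filter. Gene symbols and positions were from GENCODE M21 (GRCm38), and symbols matched 29301 of 30072 identifiers. The genes named were all 10 members, list genes with an adjusted P under 0.05, and the 10 genes most like the class II chains. The members and lists were chosen with earlier results of these data known. Alternatives were DESeq2 1.42.0, limma 3.58.1, other scalings and filters, log2(TPM + 1) and log2(TPM + 0.1), a replicate block, a Y-linked covariate, each mouse left out, and 2 dispersion settings chosen after the data were seen. Code was tested on simulated counts. Library preparation was not tied to dates in the sources used here, so batches could not be examined.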

Additional observations from a re-analysis of the deposited data

Results flagged for a closer look

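Dixon's ratio of gap to range was examined in 48 groups of 6 mice (the 10 genes and 6 marker sums in 3 groups), and 8 values lay far from the others. For normally distributed values, chance flags about 1 in 20 groups. That rate need not hold for these CPM values, some of which rest on a few counts. H2-Aa had 0.167 CPM in control mouse 2 and 0 elsewhere, a value of 2 counts. H2-DMb1 had 1.08 CPM in control mouse 2, beside 0.185 in the next control mouse. Flt3 had 0.555 CPM in control mouse 4, beside 0.0862 in the next. Control mouse 4 also had the highest control sums of macrophage markers (506 CPM, next 274) and monocyte markers (8.81 CPM, next 2.99). Cd74 had 404 CPM in mouse 6 at 6 weeks, beside 289 in the next mouse. Cd86 had 5.15 CPM in mouse 5 at 6 weeks, and monocyte markers summed to 21.7 CPM in mouse 4 at 6 weeks.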

How the results depend on the processing

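The number of the 9 genes called was 5 at 2 weeks, 8 at 6 weeks and 2 from 2 to 6 weeks. It was 3 at 2 weeks in limma with sample quality weights and with the stricter filter, and those fits gave 6 and 7 at 6 weeks. It was 7 at 2 weeks on log2(TPM + 0.1), and from 2 to 6 weeks it was 5 on log2(TPM + 1) and 4 with the Y-linked covariate. The cause of these differences was not tested, except that the stricter filter dropped Flt3 and H2-DMb1. With 1 mouse left out the number ran from 0 to 6, from 8 to 8 and from 1 to 3. Replicate numbers did not pair the mice (correlations of same-numbered mice -0.083 to 0.106), and a replicate block gave 4, 8 and 2. Of 831 refits of single genes, 774 kept direction and side of the threshold, 35 lost it, 18 gained it and 4 reversed. The reversals were Flt3 from 2 to 6 weeks (-0.147 to 0.199 with 1 mouse left out), at -0.135, -0.056, -0.028 and -0.147 without mouse 2 or 4 at 2 weeks or mouse 2 or 6 at 6 weeks. The 7 ratios to Cd74 became 0 with H2-Ab1 as reference, and 5 to 9 with 1 mouse left out. The 10 marker ratios became 8 to 10. Scaling by library size alone put the all-gene median log2 fold change at 0.148, 0.243 and 0.111, and log2(TPM + 0.1) at 0.239, 0.369 and 0.147. Pathway list genes called higher then went from 4 to 10, from 19 to 39 and from 5 to 10, and those called lower from 2 to 0 at 6 weeks and from 2 to 1 from 2 to 6 weeks. Flt3, H2-DMb1 and Cd80 rested on low counts, at most 16, 41 and 46 in any mouse, where 3 counts were 0.179 to 0.278 CPM.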
